A study of Mus musculus with 4 samples.

Results

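The peptidylarginine deiminases are calcium-dependent enzymes that convert arginine in proteins to citrulline. The group described here is the genes Padi1, Padi2, Padi3 and Padi4, read by all 6 gene probes whose name in the array files is 1 of these 4 symbols, out of 41174 probes on the array. The members were selected on the comparison of knockout with control skin described below. Their values in that comparison are therefore a description, from which no support is drawn. Padi6, the remaining gene of the family, was added for completeness.

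The samples were back skin biopsies of mice aged 10 days on a mixed 129Sv and C57BL/6 background. The 2 cKO animals (for conditional knockout) were Adam17 flox/flox with a Krt14-Cre transgene. Adam17 encodes a membrane protease that sheds surface proteins. Its deletion falls on cells that use the Krt14 promoter, the basal keratinocytes and the outer layers of the hair follicle. The cells that descend from these carry the deletion as well. The 2 controls were littermates without Cre, from matings of Adam17 flox/+ Krt14-Cre with Adam17 flox/flox mice, and the labels do not say how many floxed alleles they carried; 1 control and 1 cKO animal came from each of 2 litters. As no animal carried Cre without the deletion, effects of the transgene and of the deletion cannot be told apart. Adam17 had a processed signal of 1020 and 1011 in the controls and 702 and 713 in the cKO animals, 69.0% of control. The biopsies also hold cells in which Krt14-Cre has never been active. All 10 markers of basal keratinocytes and all 10 of fibroblasts were well above background on every array.

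Citrullination removes the positive charge of arginine and loosens the folding of the target protein. In skin it is best known in the upper epidermis, where the keratins KRT1 and KRT10 and filaggrin are modified before filaggrin is broken down to the amino acids that hold water in the cornified layer. In the hair follicle trichohyalin and S100A3 are modified as the inner root sheath, the medulla and the cuticle harden. Padi1 and Padi3 are the members known for these layers, Padi2 is known from muscle, glia, glands and macrophages, and Padi4, whose protein enters the nucleus and modifies histones, is known from granulocytes.

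The probes decide which part of each transcript was read, so the first 30 bases of each 60-base probe that represents a gene are shown, with those of the Padi4 probe farthest from the 3' end. Sequences and mm9 positions come from the array files, on the strand of the transcript, and no exon annotation of that build was used here.
Padi1, chr4:140369192-140369221, minus strand: atggcctagtaggcattggctcttccccct
Padi2, chr4:140508295-140508324, plus strand: aacttaggcccagatgcttctgggctacac
Padi3, chr4:140341394-140341423, minus strand: tacagccatcctgcaggttgccatagaggc
Padi4, chr4:140301823-140301852, minus strand: tgtgtcctcaaatggtccttgcatagcaag
Padi4, chr4:140315933-140315962, minus strand: tccaatgaccctaagcacgaagacgcccaa
Among the 7 probes of the family, the longest run of bases shared between probes of different genes was 8. Matches of the probes to other transcripts were not searched.

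In cKO skin Padi1 and Padi3 gave lower signals, Padi4 a slightly lower one and Padi2 a higher one, each in both litters. All 6 member probes were well above background on all 4 arrays. Levels and differences below are log2 signals relative to the array's 75th percentile, and differences are cKO minus control. With limma over 15550 genes, 0 of the 4 genes passed an adjusted p of 0.05, which 0.341% of all genes passed (53, and 0 without control replicate 1 or control replicate 2), and 3 of the 4 had an unadjusted p under 0.05, as 16.1% of all genes had. With litter in the model as a replicate block, 0 of the 4 passed (0% of all genes), and 3 had an unadjusted p under 0.05 (23.8% of all genes). As the members were chosen with these results known, nothing is read from either count.

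Padi1 encodes the deiminase of the spinous and granular layers. Its processed signal was 13264 and 15692 in control replicates 1 and 2 and 7486 and 7216 in cKO replicates 1 and 2. Both cKO animals lay below both controls, and the cKO animals differed from each other by less than the controls did. The level was 4.23 ± 0.13 in control skin and 3.25 ± 0.04 in cKO skin (SD, n = 2 each), a difference of -0.99 ± 0.10 (SE). The signal was thus 50.4% of control, 54.9% in litter 1 and 46.3% in litter 2. Of the 15550 genes tested, 176 had a difference at least as low, Padi1 included.

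Padi3, the deiminase of the granular layer and of the inner root sheath and medulla of the hair, had a signal of 67978 and 80807 in the controls and 45211 and 49340 in the cKO animals. The groups did not overlap, and in each group the litter 2 animal was the higher. The level went from 6.59 ± 0.13 to 5.93 ± 0.08 (SD, n = 2 each), a difference of -0.66 ± 0.11 (SE), or 63.1% of control. The litters gave 64.7% and 61.5%, so the difference varied less between litters for Padi3 than for Padi1. A total of 397 genes had a difference at least as low.

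Padi4 was read by 3 probes that all gave lower signals in both cKO animals, by different amounts. The brightest, at position 2210 of the transcript, read 16893 and 19028 in the controls and 15753 and 15768 in the cKO animals. Its difference was -0.20 ± 0.09 (SE), or 87.0% of control. The probe at position 2328 read 10850 and 12406 against 10210 and 9970, a difference of -0.22 ± 0.10 (SE, over all probes). The probe at position 565 was dimmer, with 284 and 406 against 238 and 264, and differed by -0.45 ± 0.18 (SE, over all probes), or 73.1% of control. Its controls were farther apart than those of the other probes, with an SD of 0.32 against 0.08 at position 2210. By litter it gave -0.30 and -0.61, against -0.14 and -0.26 at position 2210. Whether the probes differed was not tested. With the mean of the 3 probes the gene's difference was -0.29. Among the genes tested, 2488 had a difference at least as low as that of the brightest probe.

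Padi2 was the member with a higher signal. It read 102 and 112 in the controls and 164 and 193 in the cKO animals, in both of which it was above either control. The level went from -2.84 ± 0.05 to -2.12 ± 0.16 (SD, n = 2 each), a difference of 0.72 ± 0.11 (SE), or 165% of control, with 156% in litter 1 and 174% in litter 2. A total of 233 genes had a difference at least as high. The probe was dim, and with normexp background correction and quantile normalization its difference was 0.40. Padi6, known from the oocyte, was not well above background on any array and is given no fold.

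**Figure D1:**
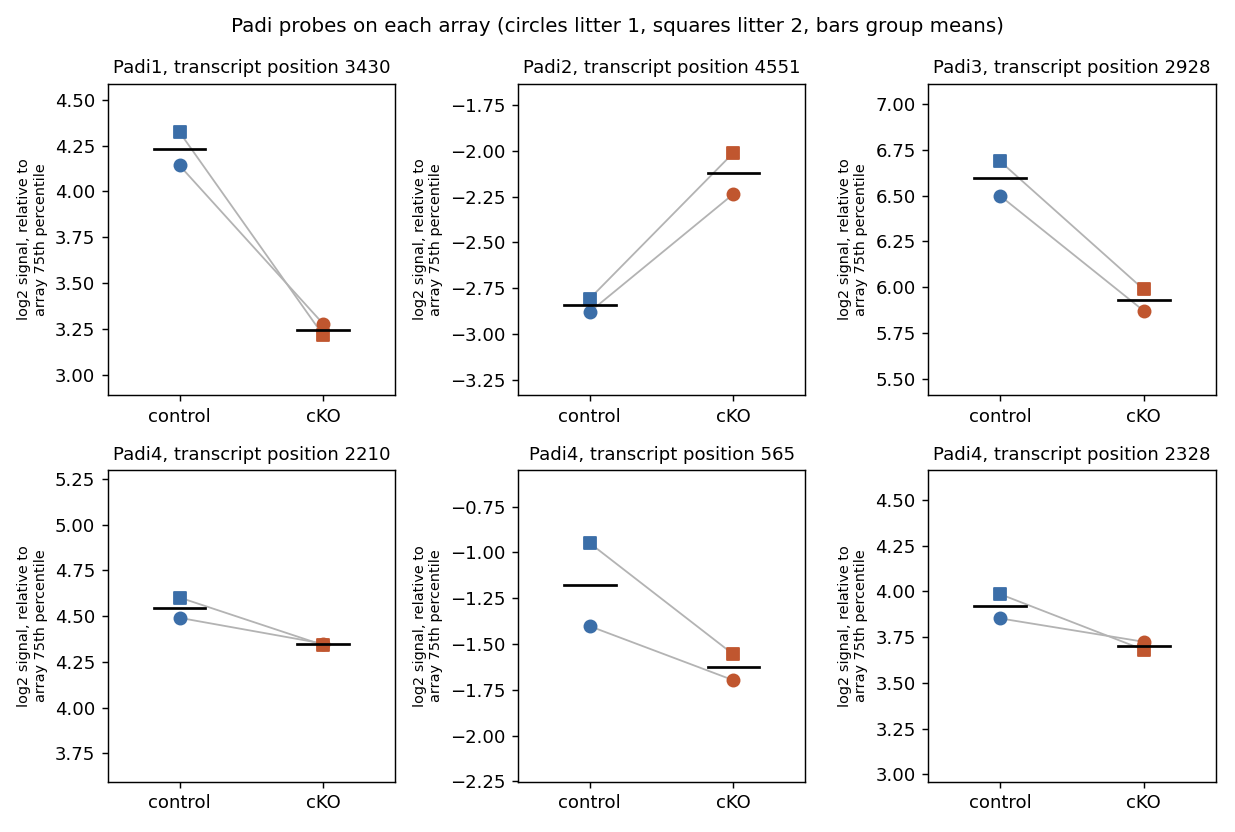
Log2 signal relative to each array's 75th percentile (vertical axis, the same span of 1.7 in every panel) for the 6 member probes in control (blue) and cKO (orange) skin, with circles for litter 1, squares for litter 2, grey lines joining littermates and black bars for the mean of the 2 animals. The Padi1, Padi3 and Padi4 probes lie lower in both cKO animals and the Padi2 probe higher.

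In this family the groups did not overlap for any of the 4 genes, but in these data 49.4% of all genes tested had groups that did not overlap. Likewise 3 members were lower in both litters, as were 32.1% of all genes, and 1 was higher in both litters, as were 40.4%. The Padi1, Padi2 and Padi3 differences were 0.66 or more in size, against a median absolute difference of 0.14 over all genes. As the members were chosen on this comparison, nothing is read from those sizes. Fewer cells that express a gene and less RNA per cell cannot be told apart in bulk skin.

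A comparison that the choice of members did not use is that of litter 2 with litter 1, with genotype in the model. The members differed between litters by 0.05 for Padi4, 0.06 for Padi1, 0.15 for Padi2 and 0.15 for Padi3, all higher in litter 2. By limma 0 of the 4 passed (adjusted p from 0.371 to 0.764, higher in litter 2 in 2 of 2 genotypes for Padi2 and Padi3). Over all genes 0% passed between litters and 16.1% had an unadjusted p under 0.05, which 0 of the 4 members had. For Padi1 and Padi4 the litters went in opposite directions by genotype. In litter 2 Padi1 was 0.18 higher in controls and 0.06 lower in cKO skin, and the brightest Padi4 probe 0.11 higher and 0.0083 lower.

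The Padi genes lie side by side on chromosome 4, and their order along it was also that of their differences up to Padi1. By the probe positions in mm9, Padi4, Padi3 and Padi1 follow each other on the minus strand, and Padi2 lies beyond Padi1 on the plus strand, 206.6 kb from the outermost Padi4 probe. The window of 300 kb around the family's probes held probes of 15 further gene or transcript names, of which 11 were tested and 4 were not well above background. Their differences ran from -0.17 for Arhgef10l to 0.25 for LOC100047340, with a median of -0.08. Of the 11, 0 passed in limma (0.341% of all genes) and 0 had an unadjusted p under 0.05 (16.1%). A second, dim probe of Arhgef10l, with signals of 45.2 and 63.6 in controls and 36.5 and 40.8 in cKO skin, differed by -0.49 ± 0.18 (SE, over all probes), so the probes of that gene disagreed in size. Sdhb, a subunit of succinate dehydrogenase and the first tested gene beyond Padi2, differed by 0.05. Rcc2, a regulator of chromosome condensation on the far side of Padi6, differed by 0.06. The others were Atp13a2 (a lysosomal ATPase, -0.14), Mfap2 (a microfibril protein, -0.15), Crocc (rootletin, 0.02), Necap2 (an endocytosis protein, -0.08), Spata21 (-0.09), Szrd1 (-0.11) and Fbxo42 (an F-box protein, 0.07). As the Padi genes were chosen for their differences, setting them against their neighbours is no test.

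**Figure D2:**
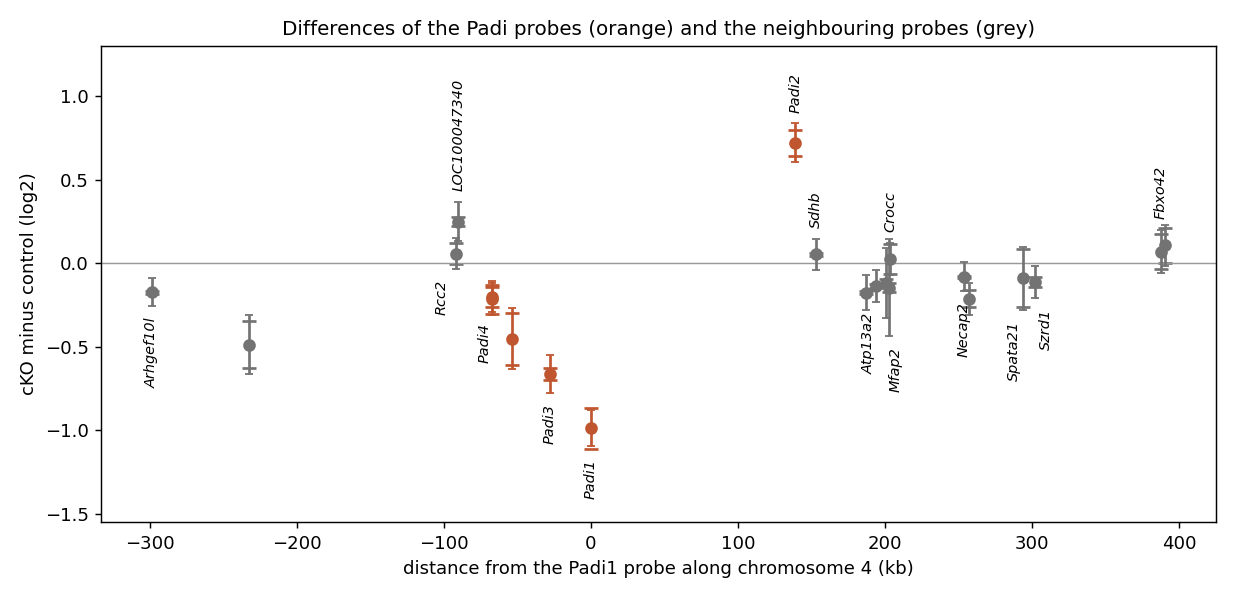
Difference between cKO and control skin (log2, vertical axis) of each tested probe within 300 kb of the Padi family's probes against its distance from the Padi1 probe (kb, horizontal axis), with dots for the fitted difference, capped bars for its SE and short ticks for the 2 litters. Padi probes are orange and all others grey, and only the probe that represents a gene is labelled. Padi1 and Padi3 lie lowest and Padi2 highest, while the 11 labelled neighbours lie between -0.17 and 0.25 and the unlabelled second Arhgef10l probe at -0.49.

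As members next to each other moved in both directions, the 150 bases before each start site are shown, from RefSeq on GRCm38.p6, 5' to 3' on the gene's strand. Capitals mark matches to 4 motifs searched on both strands: TATAAA (the TATA box), CCAAT (bound by NF-Y), GGGCGG (a GC box, bound by SP1 and SP3) and TGANTCA (bound by AP-1). No 2 matches overlapped.
Padi1, chr4:140845779-140845928, minus strand: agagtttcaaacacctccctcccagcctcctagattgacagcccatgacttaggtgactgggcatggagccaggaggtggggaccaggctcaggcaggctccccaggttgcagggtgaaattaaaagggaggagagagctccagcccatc
Padi3, chr4:140810649-140810798, minus strand: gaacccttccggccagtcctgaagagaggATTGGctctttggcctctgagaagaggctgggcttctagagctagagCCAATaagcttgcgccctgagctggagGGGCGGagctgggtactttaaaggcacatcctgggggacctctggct
Padi4, chr4:140774204-140774353, minus strand: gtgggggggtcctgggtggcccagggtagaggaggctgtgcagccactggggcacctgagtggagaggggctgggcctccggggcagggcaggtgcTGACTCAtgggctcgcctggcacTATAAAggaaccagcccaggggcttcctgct
Padi2, chr4:140906210-140906359, plus strand: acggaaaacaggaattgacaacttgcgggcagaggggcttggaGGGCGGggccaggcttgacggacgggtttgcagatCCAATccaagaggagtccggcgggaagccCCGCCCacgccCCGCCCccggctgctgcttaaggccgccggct
In the full windows, from 250 bases before to 50 after the start, Padi1 held none of the 4 motifs. Padi3 held 2 CCAAT matches, 121 and 74 bases before the start, and 1 GC box. Padi2 held 1 CCAAT match, 72 bases before the start, and 3 GC boxes. Padi4 held a TATA box 31 bases and an AP-1 match 54 bases before the start. Over 32851 windows of the same length, 13.6% held TATAAA, 37.4% CCAAT, 35.7% GGGCGG and 7.81% TGANTCA on either strand. The letters thus differed between Padi1, Padi3 and Padi4, whose signals all were lower, while Padi3 and the higher Padi2 shared CCAAT and GGGCGG. A match is a description of the sequence and not a bound site.

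The transcripts of factors known from human PADI promoters were measured as well. Of 12 tested, 0 passed (limma), 5 were lower in both litters (32.1% of all genes) and 5 higher (40.4%). The median was 0.03, as it was over all genes. Without 1 array that median lay between -0.04 (without control replicate 1) and 0.07 (without control replicate 2), and it was -0.01 without cKO replicate 2. Mzf1, a zinc finger factor with a dim probe (level -3.26 in controls), stood at 0.50 ± 0.11, and the AP-1 gene Junb at -0.42 ± 0.10 (SE each).

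Several of the proteins that Padi1 and Padi3 are known to modify had higher transcript signals in cKO skin, where these enzymes' own signals were lower. The list of 10 known substrates also holds Vim (vimentin) and the myelin gene Mbp. Of the 10, 7 were higher in both litters (40.4% of all genes), 3 were lower (32.1%) and 0 passed (limma). Their median was 0.45, and 0.28 with normexp and quantile normalization. Filaggrin, Flg, read 4093 and 5502 in controls and 10995 and 17702 in cKO skin, a difference of 1.54 ± 0.27. Krt1, the keratin of the spinous layer, read 4037 and 4584 against 10771 and 19633, a difference of 1.74 ± 0.30. For both genes each cKO animal was above each control, and litter 2 gave the larger difference. The Krt1 partner Krt10 differed by 0.58 ± 0.12, and the filaggrin relatives Hrnr (hornerin) by 1.10 ± 0.19 and Flg2 by 0.31 ± 0.09 (SE each). The late epidermal keratin Krt2 differed by 0.78 ± 0.14 (SE). Its probe was dim, with 54.7 and 46.8 in controls and 81.7 and 94.7 in cKO skin. Vim differed by 0.25 ± 0.11 (SE).

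The hair substrates did not share this. Tchh, which encodes trichohyalin, had levels of 9.05 and 9.07 in controls and 9.03 and 9.01 in cKO skin. The groups did not overlap, but the difference of -0.04 ± 0.08 (SE) was smaller than its error. S100a3, known as a substrate of PADI3 in the hair cuticle, differed by -0.26 ± 0.08 (SE). Mbp, the myelin protein known as a substrate of PADI2, differed by -0.56 ± 0.09 (SE), opposite in sign to Padi2. The enzymes that act on filaggrin before or after its citrullination differed among themselves. Casp14, a protease of the cornified layer, stood at 0.75 ± 0.10, Blmh, which frees amino acids from filaggrin, at -0.13 ± 0.09, Capn1, a calpain, at -0.16 ± 0.09 and the retroviral-like protease Asprv1 at -0.17 ± 0.08 (SE each). In that list of 12, which also holds Flg and its relatives, 7 were higher in both litters (40.4% of all genes) and 5 lower (32.1%). Of the 12, 0 passed (limma), and the median was 0.22. Repetin, Rptn, a relative of trichohyalin, had the smallest p, at 0.79 ± 0.09.

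Partners of Padi3 in the hardening hair gave lower values on the whole, as Padi3 did. Of 11 tested genes of the inner root sheath, medulla and cuticle, 8 were lower in both litters (32.1% of all genes), 1 was higher (40.4%) and 0 passed (limma). Among the 8 lower ones, Tchh and Krt71 differed by less than their SE. Tchh and S100a3 are also on the substrate list and Tgm3 on that of the cornified envelope, so the lists are not separate. The median of the 11 was -0.24, but -0.12 with quantile normalization and -0.14 with normexp and quantile normalization. The inner root sheath keratins Krt26 and Krt27 stood at -0.93 ± 0.09 and -0.63 ± 0.08 (SE). The other keratins tested there were less low, with Krt28 at -0.31 ± 0.10, Krt71 at -0.05 ± 0.10 and Krt25 at 0.12 ± 0.12 (SE each). For Krt71 and Krt25 the groups overlapped. Tgm3, the transglutaminase that cross-links trichohyalin after its citrullination, read 2081 and 2317 in controls and 1540 and 1717 in cKO skin. Its groups did not overlap, and the difference was -0.45 ± 0.10 (SE). Of 12 genes of the cornified envelope, 7 were lower in both litters and 3 higher, and 0 passed (limma), at a median of -0.14, and of -0.05 without control replicate 2. Tgm1, the membrane-bound transglutaminase, stood at -0.13 ± 0.10, Tgm5 at 0.38 ± 0.10 and Lor (loricrin) at 0.24 ± 0.12 (SE each).

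Other enzymes that make or use citrulline or act on arginine showed no common direction. Of 10 tested, 4 were higher in both litters (40.4% of all genes) and 3 lower (32.1%), and 0 passed (limma). The median was 0.07, but -0.02 without cKO replicate 2, -0.0025 without control replicate 2 and 0.03 without control replicate 1. Asl and Ass1, which turn free citrulline back into arginine, stood at -0.53 ± 0.10 and -0.48 ± 0.09 (SE). The arginases went in opposite directions, with Arg1 at -0.42 ± 0.15 and Arg2 at 0.41 ± 0.09 (SE). The methyltransferases Prmt1, Prmt5 and Carm1, which act on arginine in proteins, stood between -0.03 and 0.09.

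Markers of other cells that can carry Padi2 or Padi4 were read from the same arrays. A list's summed level is the log2 of the summed signals of its tested genes, relative to the array's 75th percentile, and so follows its brightest genes. For skeletal muscle, all 10 markers were tested and 8 were higher in both litters. The summed level was 9.23 to 9.61 in controls and 9.71 to 9.78 in cKO skin. Mb (myoglobin) stood at 0.84 ± 0.10 and Acta1 (actin) at 0.44 ± 0.13 (SE). Myh4, at -0.19 ± 0.23, and Ckm, at 0.09 ± 0.15 (SE), were lower in cKO skin in litter 1 and higher in litter 2. The groups overlapped for Myh4, Ckm and Actn3. For macrophages, 8 of 9 tested were higher in both litters, and the summed level was 3.95 to 4.57 in controls and 4.65 to 4.83 in cKO skin. That sum was mostly Lyz2, at 4.05 and 3.39 in controls and 4.37 and 4.22 in cKO skin. The groups overlapped for Adgre1, Csf1r, Cd163, Mrc1 and C1qa. Over all genes 40.4% were higher in both litters. The macrophage median was 0.33, but 0.02 without control replicate 2, 0.20 without cKO replicate 1 and 0.50 without control replicate 1, and the muscle median of 0.37 was 0.19 without control replicate 2. The summed levels of both lists and Padi2 were higher in the same animals, and the part of these cells in the Padi2 difference was not tested. For Schwann cells the summed level was 5.23 to 5.47 in controls and 5.18 to 5.49 in cKO skin, so that the groups overlapped.

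Of the 11 granulocyte markers on the array, 9 were not well above background on both arrays of either group, and 7 of these, Elane and Csf3r among them, on no array. Camp, a granule protein above background on every array, stood at 0.75 ± 0.28 (SE), higher in the animals in which Padi4 was lower. Its part in the Padi4 difference was not tested. Camp was dim, at -4.47 and -3.87 in the controls, where the lowest signals well above background were -4.86 and -4.62. The mean level in controls was 4.55 for the brightest Padi4 probe, against -4.17 for Camp. Which cells gave the Padi4 signal was not tested. The other tested marker, Mmp9, was above background in 1 of the 2 controls and passed the filter only through the cKO group. It is given no difference, and no median of the 2 tested markers is read. The summed level of basal keratinocyte markers was 9.35 to 9.37 in controls and 9.45 to 9.49 in cKO skin, with 9 of 10 higher in both litters (40.4% of all genes). It was thus slightly higher in the animals in which Padi1 and Padi3 were lower. Basal markers do not measure the layers for which Padi1 and Padi3 are known. The part of cell numbers in the Padi1 and Padi3 differences was not tested. Fat cell markers were higher in both litters for 8 of 10, with a median of 0.56, and of 0.37 without control replicate 2. Fibroblast markers had no settled direction, with a median of -0.01 that became 0.19 without control replicate 1, 0.21 without cKO replicate 2, -0.29 without cKO replicate 1 and -0.24 without control replicate 2. Among all of these cell markers 0 genes passed (limma).

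**Figure D3:**
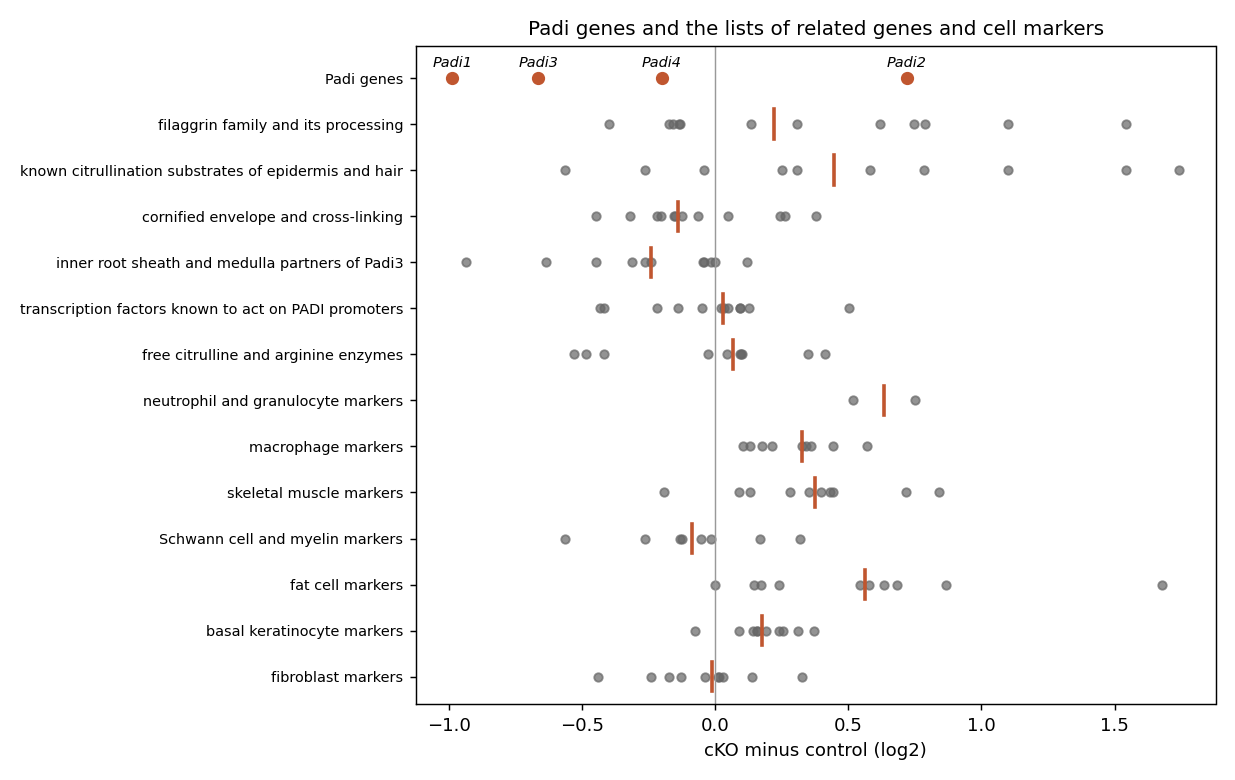
Difference between cKO and control skin (log2, horizontal axis) of the 4 Padi genes (orange dots, top row) and of every tested gene of the 13 lists (grey dots), with an orange bar at each list's median. Known citrullination substrates reach from -0.56 to 1.74, and the partners of Padi3 in the hair lie mostly below 0. The granulocyte row holds Camp and Mmp9, of which Mmp9 passed the filter only through the cKO group.

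The genes whose pattern over the 4 arrays was most like that of each member were found by the distance between profiles centred on their own means. For Padi1 they were Slc4a1, the red cell anion exchanger (distance 0.08), Cpn2 (0.12) and Arhgdig (0.12). For Padi2 they were Elf3, an epithelial ETS factor (0.02), Prcd (0.08) and Cilp2 (0.09), and for Padi3 Frmpd1 (0.05), Aplp1 (0.06) and Smtn (0.06). For Padi4 they were Rab9 (0.0032), Fam25c (0.01) and Glt28d2 (0.01). The profiles rest on 4 arrays, and the distances are descriptions.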

How the data were processed

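RNA from 4 back skin biopsies was labelled with Cy3 and hybridised to 1-colour Agilent arrays of design 014868, 1 per animal, per the labels' protocols and the file headers. All 4 arrays lay on 1 slide with 1 scan time, so neither could be tested as a batch. Feature Extraction is given as version 10.5 in the submitters' processing notes and as 10.7.3.1 per the file headers. The deposited intensity values are background-subtracted, detrended processed signals with flags. Per array, 53.7% to 56.6% of 43379 gene spots were well above background and 0 were saturated, and precision is limited by there being 4 arrays. The authors' deposited table holds log2 values, which matched log2 processed signal minus the 75th percentile and the probe median (Pearson correlation 0.999993 or more, column medians from -0.08 to 0.08), and served as an alternative.

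Values were log2 processed signals from which the 75th percentile of the array was subtracted. Outlier spots were left out, spots of a probe were averaged, and a probe was kept if flagged well above background in both animals of either group, as 22188 of 41174 were. A gene was its brightest probe. Names came from RefSeq accessions (26690 probes), symbols (5189), synonyms (952) or the file (8343). The comparison of genotypes used limma (version 3.58.1, R 4.3.3) over 15550 genes (two-sided, Benjamini-Hochberg, threshold 0.05), which was tested on simulated data, and SEs of single probes came from the same fit over 22188 probes. The litters were compared with genotype in the model. Replicate numbers pair littermates per the labels; deviations from group means correlated between littermates at 0.35 across genes.

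The members, the 13 gene lists and the rule for named genes (the family, its neighbours, substrates by role, the 2 smallest p of each list, the 3 nearest profiles) were chosen with earlier results of these data known. Cd14, Dst, Lamb3, Egr2, Retn, Cidec, Fbln1 and Pdgfra fall under the rule and are not described. Arg1, Arg2, Elane, Csf3r and the methyltransferases were named after their values were seen. So were Krt25, Krt28, Krt71, Adgre1, Csf1r, Cd163, Mrc1, C1qa, Myh4, Ckm and Actn3. A planned comparison of protein sequences was not made, as no protein table was used here.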

Additional observations from a re-analysis of the deposited data

How the results depend on the processing

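The Padi differences kept their sign under all 14 alternatives, from -1.08 to -0.90 for Padi1, 0.40 to 0.83 for Padi2, -0.76 to -0.57 for Padi3 and -0.29 to -0.14 for Padi4. Padi1 passed the threshold under 1 of them, normexp with quantile normalization (-0.92, adjusted p = 0.0299, limma; 0.0299 to 0.275 over the alternatives), so that 1 Padi gene passed there and 0 elsewhere. The cause was not tested. The litter differences of the 4 genes stayed below the threshold under all 9 alternatives run for them. The share of genes tested that passed the threshold was 0.341% (11 higher and 42 lower in cKO skin). It was 0% with the replicate block (lowest adjusted p = 0.0567, limma; 3706 genes were at an unadjusted p under 0.05), 0% without the filter on dim probes (2079 genes unadjusted), 0.187% when all arrays had to be above background, 0.688% scaled to the median, 0.514% with quantile normalization and 1.04% with normexp. Leaving out 1 replicate gave 0% to 0.244%: 0% without control replicate 1 (1840 genes unadjusted), 0% without control replicate 2 (1749 genes unadjusted), 0.154% without cKO replicate 2 and 0.244% without cKO replicate 1. The block changed no Padi call.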

Other observations

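Within an array the ratio of 2 members does not depend on the array's scaling. The Padi1 difference was below that of Padi3 by 0.24 in litter 1 and 0.41 in litter 2, and below that of Padi4 by 0.72 and 0.85. Padi2 stood above Padi4 by 0.78 in litter 1 and 1.06 in litter 2. Whether the 4 differences were unequal was not tested, and the gaps do not show that any of the genes was unaltered. As the members were chosen on this comparison, nothing is read from the gaps.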
